A study of Mus musculus with 7 samples.

Results

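In the tumour-bearing hemispheres of mice with CT-2A glioma, a syngeneic mouse glioma line, the authors annotated one group of T cells as CD4 T cells in a naive or early activation state. All cells that carry exactly this name were taken: 786 of the 28644 cells in the series, with 29, 164, 144 and 166 cells in knockout (KO) mice 1 to 4 and 63, 158 and 62 cells in wild-type (WT) mice 1 to 3. They are compared with the cells named Tfh (follicular helper, 1364 cells), Th1 (T helper type 1, 1249 cells) and naive or early activation CD8 T cells (1502 cells, called naive CD8 cells here).

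All 7 mice carried the floxed Siglece allele (Siglece fl/fl, from a B6.129P2 background), were 8 to 12 weeks old at engraftment and received 2.5 mg tamoxifen per injection, daily from day 7 to day 21 after tumour injection and every other day thereafter. The 4 KO mice also carried Sall1-CreERT2 (B6;129), a tamoxifen-inducible Cre under the control of Sall1, a gene that marks microglia in the brain, and the 3 WT mice lacked it. The deletion is thus directed at microglia and not at T cells. Each mouse gave 1 library of sorted live cells positive for CD45, CD11b or both, dissociated enzymatically, frozen and thawed before sorting, and read by 10x 5-prime single-cell sequencing.

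Naive T cells circulate between blood and lymphoid organs and seldom enter the brain. The transcription factors Klf2, Tcf7 and Lef1 maintain the resting state. Klf2 drives S1pr1, the receptor with which T cells leave tissue towards blood, and Ccr7 guides naive cells into lymph nodes. After contact with antigen, CD4 T cells shut off much of this set and acquire helper programmes, among them Tfh cells, which help B cells and are marked by Cxcr5, Pdcd1 and Il21, and Th1 cells, which make interferon-gamma.

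The annotated cells held a median of 2610 UMIs (unique molecular identifiers, counted molecules) and 1270.5 detected genes, fewer than the Tfh cells (3740 UMIs), Th1 cells (5088) and naive CD8 cells (3432). Summed over cells, the 7 mice gave 92404 to 458753 UMIs for this annotation, the fewest in KO mouse 1. KO and WT medians did not separate in depth (2680 ± 443 and 2823 ± 627 UMIs, SD, n = 4 and 3, exact permutation p = 0.743). By Xist and Y-linked transcripts KO mice 1 and 2 and WT mouse 3 were female and the others male. Siglece had 2, 1, 0 and 0 UMIs in the microglia of KO mice 1 to 4 and 20, 19 and 7 in those of WT mice 1 to 3, but KO mice gave only 13 to 49 microglia (36904 to 186615 UMIs) against 92 to 113 in WT mice (377244 to 553957 UMIs). Per depth these were 10.7, 19.6, 0 and 0 CPM (counts per 1000000 UMIs) in KO and 36.1, 45.9 and 18.6 CPM in WT mice, so KO mouse 2 overlapped WT mouse 3. In the annotated CD4 cells, where neither Siglece nor Sall1 is at home, Siglece had 0, 1, 2 and 2 UMIs in KO mice and 0 in all 3 WT mice, and this checks nothing about the deletion. Of the 786 cells, 34 shared their barcode with a cell of another library, and for 2 of these the other cell had the same annotation. Tfh and Th1 comparisons used 6 mice, 4 KO and 2 WT, because WT mouse 1 held only 18 Tfh and 8 Th1 cells against the minimum of 20.

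The markers upheld the name in part. Lef1 lay at 111 ± 42.6 CPM (counts per 1000000 UMIs of the summed cells, mean ± SD, n = 7 mice), above Tfh (33.3 ± 4.56, n = 6) and Th1 cells (30.8 ± 5.51, n = 6) in every mouse compared, and near naive CD8 cells (89.4 ± 24.0, n = 7). Cd4 lay at 184, 196, 351 and 235 CPM in KO mice 1 to 4 and at 317, 325 and 174 CPM in WT mice 1 to 3. That is above the naive CD8 cells (26.3 to 115 CPM), with no overlap, and below the Tfh cells (421 to 740 CPM) and Th1 cells (574 to 856 CPM), also with no overlap. Ccr7 did not set the cells above the helper annotations. It lay at 10.8, 57.5, 107 and 122 CPM in KO mice and 130, 127 and 129 CPM in WT mice, against a median of 281 CPM in Tfh and 426 CPM in Th1 cells. The naive CD8 cells had 110 ± 71.3 CPM, and 6.46% of them had a Ccr7 UMI after thinning against 8.49% here. The cells are therefore described by the authors' name and by their leading genes. Against the helper annotations Klf2, S1pr1, Tcf7 and Il7r were high and Ccr7 was low. Klf2 and Tcf7 were also found in naive CD8 cells. After thinning, Klf2 had a UMI in 66.9% of the cells here and in 51.5% of naive CD8 cells, and Tcf7 in 25.5% and 16.3%. Effector genes were found as well. After thinning, 48.1% of the cells had a Ccl5 UMI, against 33.8% of Tfh, 22.7% of Th1 and 79.3% of naive CD8 cells. An Ifng UMI was found in 25.2%, against 42.2% of Tfh, 42.5% of Th1 and 24.1% of naive CD8 cells.

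**Figure D1:**
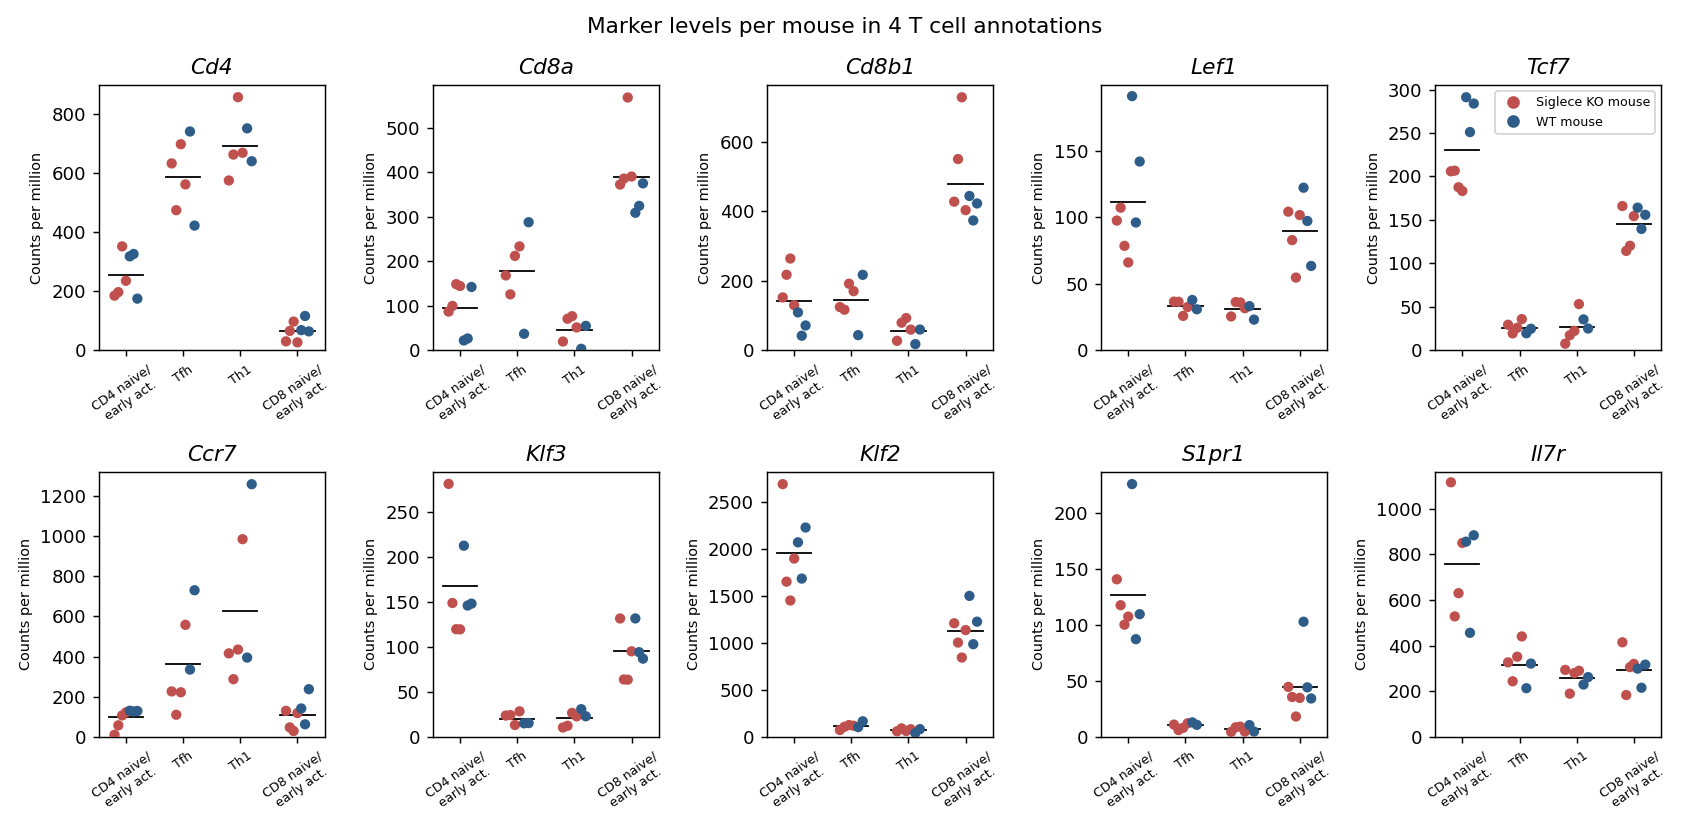
Level of 10 marker genes in 4 T cell annotations, in CPM of the summed UMIs of each mouse; each point is 1 mouse, red for KO and blue for WT, and the line is the mean (WT mouse 1 is left out of Tfh and Th1). Klf2, S1pr1, Tcf7 and Il7r stand higher in the CD4 naive or early activation annotation than in Tfh and Th1 cells. Cd4 lies between the helper annotations and the CD8 annotation, and Ccr7 is highest in Th1 cells.

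The annotation also held cells with CD8 transcripts. Cd8a and Cd8b1, which encode the chains of the CD8 coreceptor, had a UMI in 163 of the 786 cells (20.7%), Cd4 in 333 (42.4%), and both in 21 (2.67%). After each cell was thinned at random to 1428 UMIs, with shallower cells left out (707 cells remained), 15.1% of cells had a Cd8a or Cd8b1 UMI and 28.7% a Cd4 UMI. In B cells, which should lack both, the thinned shares were 0.606% for Cd4, 0.848% for Cd8a and 1.33% for Cd8b1, over 825 cells. Among Tfh cells 13.1% had a CD8 UMI at the same depth, among Th1 cells 8.03%, among regulatory T cells 6.06%, and among naive CD8 cells 48.8%. Absence of a Cd4 UMI does not show absence of the protein at this depth.

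Transcripts of other cell types were few except those of myeloid cells and, in some mice, of B cells. After thinning, Foxp3, the regulatory T cell factor, was found in 1.13% of the cells (44.7% of regulatory T cells), Trdc, the constant gene of the gamma-delta receptor, in 0.566% (31.3% of gamma-delta T cells), and Cd79a, a B cell receptor subunit, in 0.566%. The 10 B cell markers summed to 63.2 to 389 CPM in KO and 51.6 to 397 CPM in WT mice, with a median of 86.7 CPM. The 1 of them compared lay 1.56 and 1.49 log2 units above Tfh and Th1 cells and 0.0114 above naive CD8 cells. Lyz2, a lysozyme gene of myeloid cells, was found in 33.4% of the annotated cells, in 27.6% of Tfh cells, in 19.6% of Th1 cells, in 29.9% of naive CD8 cells and in 30.7% of regulatory T cells. C1qa, a complement gene of macrophages, was found in 21.1% here against 14.9% of Tfh, 12.0% of Th1 and 16.7% of naive CD8 cells. The 15 myeloid markers summed to 2243 to 6654 CPM, with none at 0, and in KO mice (2243 to 6654 CPM) spanned the range of WT mice (4202 to 5375 CPM). Their part in the results was not tested.

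Against the helper annotations, the CD4 naive or early activation cells stood out by the genes of quiescence and tissue exit. These differences are a description with no test, because the annotation was itself made from gene expression. A gene was counted as apart when its mean log2 CPM difference within mice reached 1 (2-fold) with the same sign in every mouse. Of 6044 genes, 145 (2.4%) were higher and 215 (3.56%) lower than in Tfh cells, and of 6421 genes 278 (4.33%) were higher and 341 (5.31%) lower than in Th1 cells.

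Klf2 had the largest difference among the higher genes named in both comparisons. It lay at 2688, 1650, 1450 and 1896 CPM in KO mice and 2069, 1683 and 2226 CPM in WT mice, against 73.0 to 166 CPM in Tfh and 41.4 to 90.4 CPM in Th1 cells. The lowest mouse was thus far above every helper value, and the mean log2 difference was 4.15 ± 0.58 against Tfh and 4.87 ± 0.49 against Th1 (SD, n = 6 mice each). S1pr1 lay at 87.3 to 226 CPM against 6.07 to 12.9 CPM in Tfh and 4.47 to 10.5 CPM in Th1 cells, a log2 difference of 3.21 ± 0.41 and 3.68 ± 0.58. Tcf7, which encodes TCF-1, lay at 206, 207, 188 and 183 CPM in KO mice and 291, 251 and 284 CPM in WT mice, and was 3.07 ± 0.45 and 3.21 ± 0.85 log2 units above Tfh and Th1. Klf3, a related repressor, lay at 120 to 282 CPM and was 2.91 log2 units higher in both comparisons (SD 0.50 and 0.92). Id3, an inhibitor of E-protein transcription factors, lay at 43.3 to 118 CPM and was 2.74 ± 0.41 and 3.15 ± 0.43 log2 units higher. The other genes of the 10 furthest above Tfh were Gm2682, Pgm2l1, Thada, Tmem176b and Rasgrp2, at 2.61, 2.42, 2.31, 2.29 and 2.23 log2 units. Against Th1 cells Cd7 (3.38) and Ly6c2 (2.86) joined the first 10, both of which were higher still in the naive CD8 cells. Leaving out the cells with a Cd8a or Cd8b1 UMI gave 2.99 for Cd7 and 2.47 for Ly6c2, and 4.08 for Klf2 against Tfh.

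The 10 genes furthest below Tfh cells were led by Ccl1 and Penk, which were also the first 2 below Th1 cells. Ccl1, a chemokine made by activated helper cells, had 0, 23.5, 4.36 and 0 CPM in KO mice and 0, 4.37 and 6.45 CPM in WT mice, against 115 to 2673 CPM in Tfh cells. Penk, the precursor of enkephalin peptides, had 0, 13.1, 34.9 and 31.8 CPM in KO mice and 0, 2.18 and 0 CPM in WT mice, against 260 to 703 CPM in Tfh and 616 to 1939 CPM in Th1 cells. Some mice stood at 0 for each gene, so the fitted log2 differences against Tfh (-6.69 for Ccl1 and -5.57 for Penk) depend on the prior count of 2. Nrgn, Ccl3, Dusp14, Ccl4, Csf2, Xcl1, Igfbp7 and Lgals7 completed the first 10 against Tfh, at -4.90 to -3.79. Of these, Ccl3, Ccl4 and Xcl1 are chemokines and Csf2 encodes GM-CSF. Against Th1 cells the first 10 also held Tff1, Gldc, Il1r2 (a decoy receptor for interleukin-1) and Lag3. Lag3, an inhibitory receptor that binds MHC class II, lay at 0, 20.9, 85.0 and 58.6 CPM in KO mice and 0, 48.0 and 32.3 CPM in WT mice, against 294 to 586 CPM in the 6 Th1 samples used.

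Of 25 genes of naivety and quiescence, 19 could be compared with Tfh cells and their median log2 difference was 1.11, against -0.04 over all genes, with 9 genes apart upward and 1 downward (2.4% and 3.56% of all genes were). Against Th1 cells the median was 1.13 (all genes -0.06), with 11 upward and 1 downward (4.33% and 5.31% of all genes). The exception in both was Ccr7, at -1.90 and -2.74. Besides those above, Foxp1 (1.35 and 1.80), Bach2 (1.41 and 1.13) and Tob1 (1.28 and 1.54), each a factor that restrains activation or division, were apart upward in both. Il7r, the receptor for the survival cytokine interleukin-7, lay at 1116, 528, 630 and 850 CPM in KO mice and 856, 456 and 884 CPM in WT mice and was higher by 1.31 and 1.59 log2 units.

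In the list of homing, egress and adhesion, 7 of 18 genes were apart upward from Tfh (2.4% of all genes were) and 8 of 18 from Th1 (4.33%), with 2 apart downward from Tfh (Ccr7 and Cxcr6) and 3 from Th1 (also Itgb2). The higher genes included S1pr4 (1.34 and 1.15), the integrin chain Itgb7 (1.29 in both) and the chemokine receptors Cxcr3 (1.24 and 1.44) and Cxcr4 (1.55 and 2.18). Cxcr6, a receptor of tissue-lodged T cells, was at -1.04 and -1.01. Of the cytokine receptor and feedback genes, Socs3, a feedback inhibitor of cytokine signalling, was higher by 2.10 and 2.46 log2 units, Il6ra by 1.81 and 1.40, and Bcl2, a survival factor, by 1.20 and 1.66, while Il21r and Stat3 were lower (-1.40 and -1.33 against Tfh).

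Most inhibitory receptors were lower than in the helper cells. Of 11 compared with Tfh cells 7 were apart downward (3.56% of all genes were) and 0 upward, with a median of -1.51, and of 12 compared with Th1 cells 8 downward (5.31% of all genes) and 0 upward, with a median of -1.41. Pdcd1 (PD-1) stood at -1.85 against Tfh and -1.84 against Th1, Havcr2 (TIM-3) stood at -2.89 and -2.72, Ctla4 at -1.51 and -1.46, and Tigit at -1.29 and -1.36. The early activation genes were split. Against Tfh cells 6 of 21 were apart downward (3.56% of all genes were) and 0 upward, and against Th1 cells 5 downward (5.31%) and 2 upward (4.33%), Egr1 (1.54) and Cd69. Those furthest below Tfh cells were the costimulatory receptor Tnfrsf9 (-2.91), Nr4a3 (-1.83) and Nr4a2 (-1.61), with Il2ra and Tnfrsf4 both at -1.39. Cd69, which holds T cells in tissue by removing S1PR1 from the surface, was higher by 0.89 and, against Th1 cells, by 1.12. Of 15 metabolism genes 2 were apart downward from Tfh cells (3.56% of all genes were), the glycolytic enzymes Pgk1 (-1.54) and Pgam1 (-1.24), and 2 upward (2.4% of all genes), Pik3ip1 (1.72) and Txnip (1.36), both restraints on growth metabolism. Against Th1 cells 5 of 15 were apart downward (5.31% of all genes) and 2 upward (4.33%). The Th1 list was split. Of its 21 genes 3 were apart upward from Tfh cells (2.4% of all genes), Ccl5 (1.20), Cxcr3 (1.24) and Ly6c2 (1.74). Another 6 were apart downward (3.56%), among them Ifng (-1.82). From Th1 cells 5 were apart upward (4.33%) and 4 downward (5.31%).

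The 20 genes that respond to tissue dissociation and handling differed in the same comparisons. Against Tfh cells 17 of 19 were higher, with a median of 0.90 and 5 apart upward (2.4% of all genes were), and against Th1 cells 17 of 19, with a median of 1.21 and 12 apart upward (4.33%), among them Fos, Jun, Ier2 and Zfp36. Their sum was 42006 to 61696 CPM in the annotated cells, 20920 to 40911 CPM in Tfh cells and 16884 to 32647 CPM in Th1 cells, both sums here with WT mouse 1 included. All 14 myeloid markers compared were also higher than in Tfh cells (median 0.73, with 0 apart), and 13 of 14 were higher than in Th1 cells (median 1.00, with 7 apart, where 4.33% of all genes were), in a group with fewer UMIs per cell. The part of handling and of free RNA in the differences was not tested.

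**Figure D2:**
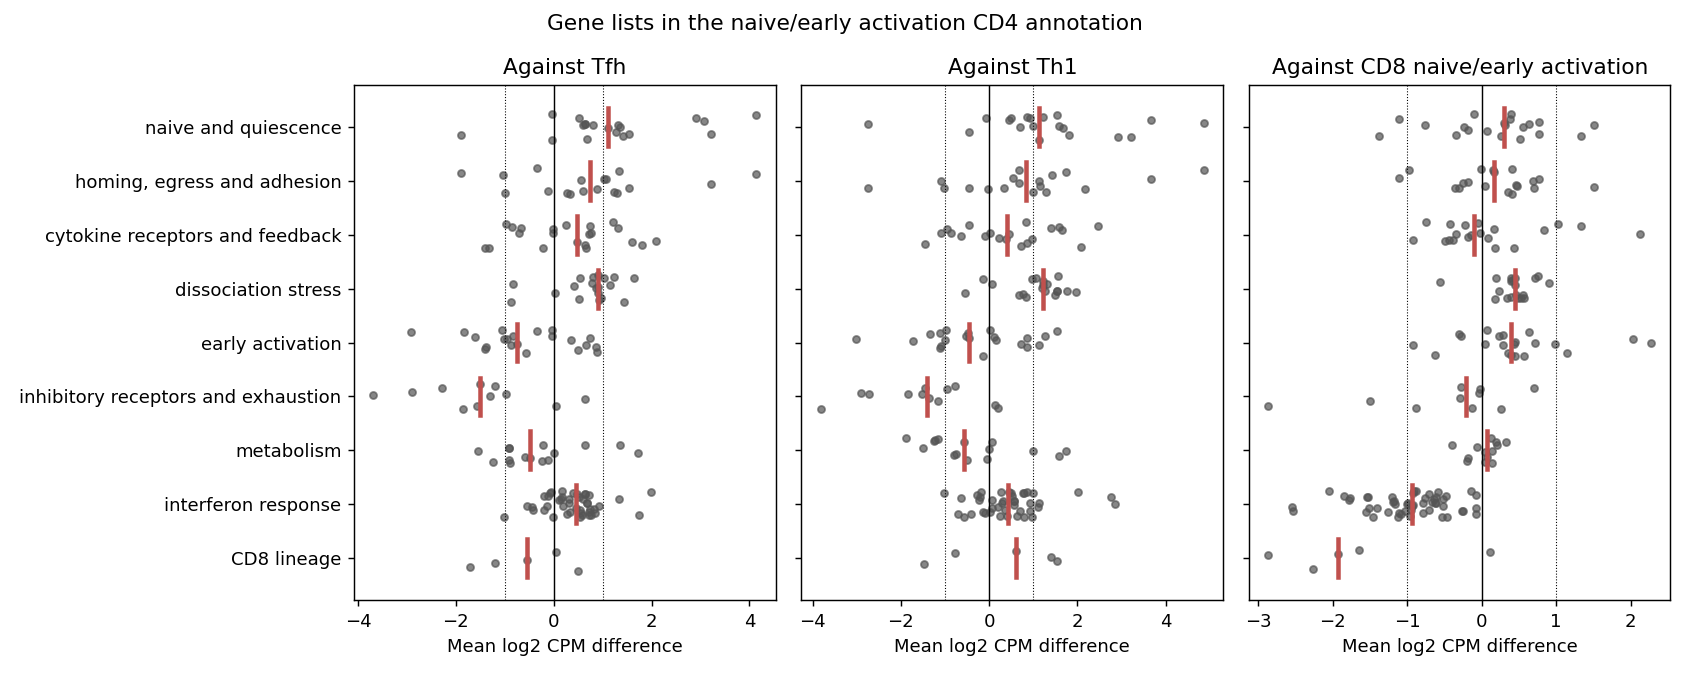
Mean log2 CPM difference between the CD4 naive or early activation annotation and 3 others, within mice, for each gene of 9 lists; each point is a gene, the red bar is the list median and dotted lines mark 2-fold. The naive list lies to the right and the inhibitory list to the left against Tfh and Th1 (medians 1.11 and -1.51 against Tfh), and the interferon list lies to the left only in the panel of the CD8 annotation.

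Against naive CD8 cells, the nearest of the 3 annotations by this count, 40 of 5336 genes were apart upward (0.75%) and 80 downward (1.5%). Of the CD4 lineage list 2 of 5 genes were apart upward, Cd4 and Cd40lg, and of the Tfh list 5 of 8 were, Il6ra, Slamf6, Maf, Izumo1r and Icos. Ramp3, a co-receptor of calcitonin-family receptors, lay at 152, 49.7, 93.8 and 164 CPM in KO mice and 156, 138 and 90.3 CPM in WT mice, against 2.64 to 22.5 CPM in naive CD8 cells, with no overlap and a log2 difference of 2.98 ± 0.49 (n = 7). Tnfrsf4 (OX40) lay at 128 to 238 CPM against 16.1 to 75.1 CPM (2.28 ± 0.73). Cd40lg, the helper signal to B cells and dendritic cells, was 2.04 ± 0.72 higher, Cd4 1.98 ± 0.61 and Slamf6, a receptor of memory and stem-like T cells, 1.97 ± 0.44. Nebl, Cpm, Tbc1d4, Tmem176b and Ass1 made up the other first 10, at 2.32, 1.99, 1.63, 1.57 and 1.57. Without the cells that held a Cd8a or Cd8b1 UMI in either annotation, Ramp3 was at 2.22, Tnfrsf4 at 1.54, Cd4 at 1.11 and Cd40lg at 1.07. This took out 872 of the 1502 naive CD8 cells and kept the 155 with a Cd4 but no CD8 UMI. The comparator thus changed too, and the smaller differences cannot be read as a change in the CD4 cells.

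Of the 80 lower genes, 21 belong to the interferon response list described next. Of the 5 CD8 lineage genes tested 4 were apart downward (1.5% of all genes were). Gzmb, encoding granzyme B, lay at 86.7, 88.9, 54.5 and 92.9 CPM in KO mice and 78.2, 162 and 90.3 CPM in WT mice, against 608 to 981 CPM (-3.15 ± 0.37). Xcl1 was at -3.87, Klra7 at -3.09, Klrb1c at -2.91, Cd160 at -2.87, Gzma at -2.62 and Cd7 at -2.35. Cd8a stood at -2.26 ± 0.93. The naive list did not separate the 2 annotations as it did the helper cells, with a median of 0.31 (all genes -0.04). Of its 20 genes 2 were apart upward (0.75% of all genes were), S1pr1 (1.51) and Il7r (1.33). Another 2 were apart downward (1.5% of all genes), among them Txk (-1.38).

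Interferon response genes were lower than in naive CD8 cells and not lower than in the helper cells. All 52 of the list's 56 genes that could be compared lay below the naive CD8 cells in mean, with a median of -0.93 (all genes -0.04), and 21 were apart (1.5% of all genes were). Against Tfh cells 33 of 44 lay higher (median 0.46, all genes -0.04), with 3 apart upward (2.4% of all genes were) and 0 downward. Against Th1 cells 31 of 42 lay higher (median 0.43, all genes -0.06), with 5 apart upward (4.33%) and 0 downward. Ifit3, an antiviral protein that blocks foreign RNA, lay at 32.5, 20.9, 45.8 and 44.0 CPM in KO mice and 60.8, 17.5 and 25.8 CPM in WT mice, against 115 to 364 CPM in naive CD8 cells (-2.53 ± 0.65). Rsad2 (viperin) stood at -2.04 ± 0.41, Mx1 at -1.84 ± 0.80 and Ifit1 at -1.45 ± 0.36. Isg15, a ubiquitin-like modifier, lay at 74.1 to 317 CPM against 223 to 643 CPM (-1.17 ± 0.56). Ly6c2, an interferon-inducible surface protein and T cell memory marker, had 126 to 411 CPM against 788 to 2280 CPM (-2.55 ± 0.27). Without the cells that hold a Cd8a or Cd8b1 UMI, Ifit3 was at -2.53, Isg15 at -1.24 and Ly6c2 at -2.78.

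Many of these genes carry the recognition motif of the interferon-activated factor complex upstream of their start. The motif searched was GAAANNGAAA on both strands (TTTCNNTTTC on the other), overlaps allowed, in the 250 bases before each RefSeq start (build GRCm38.p6). It was present for 23 of the 42 list genes matched in the table (54.8%) and for 936 of all 27025 genes (3.46%). None of the 20 matched genes of the naive list held it. A match describes letters and shows no binding. The 30-base stretches of 5 interferon genes that the results turn on are shown 5′ to 3′ on the strand of the gene, with the motif letters in capitals.
Isg15, chr4:156200871-156200900, minus strand, 82 to 53 bases before the start: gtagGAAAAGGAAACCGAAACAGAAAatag
Ifit3, chr19:34583363-34583392, plus strand, 166 to 137 bases before the start: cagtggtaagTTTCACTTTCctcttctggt
Ifit1, chr19:34640784-34640813, plus strand, 105 to 76 bases before the start: gTTTCACTTTCcagtctcagTTTCAGTTTC
Rsad2, chr12:26456553-26456582, minus strand, 130 to 101 bases before the start: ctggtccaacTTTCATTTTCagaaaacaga
Bst2, chr8:71537580-71537609, minus strand, 137 to 108 bases before the start: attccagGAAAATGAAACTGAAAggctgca
Isg15 held 3 overlapping matches in this window, Bst2 2 overlapping ones, and Ifit1 2 that lie apart. Ifit3 held a second match outside the stretch.

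Few genes set the annotation apart from all 3 others. Of 5216 genes compared in all, 9 were apart upward and 8 downward. The higher were S1pr1, Tmem176b, Nebl, Tmem176a, Socs3, Il6ra, Gm26740, Il7r and Itgb3. Il6ra, the receptor for interleukin-6, lay at 31.8 to 64.5 CPM against 6.62 to 15.4 CPM in Tfh, 5.96 to 27.1 CPM in Th1 and 2.13 to 17.8 CPM in naive CD8 cells. Socs3, which feeds back on that receptor, lay at 303 to 587 CPM, above the 115 to 277 CPM of naive CD8 cells with no overlap. Without the cells that held a CD8 UMI, the differences of Tmem176b and Socs3 from naive CD8 cells were 0.87 and 0.77. As above, this also took out most of the naive CD8 cells. The lower genes were Serpinb9, Nkg7, Litaf, Klrc1, Tnfsf10, Klrd1, Klre1 and Cst7. Nkg7, a protein of cytotoxic granules, lay at 325 to 811 CPM against 1090 to 2859 CPM in Tfh, 1035 to 2172 CPM in Th1 and 1075 to 1683 CPM in naive CD8 cells.

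Use of T cell receptor beta variable genes was broader than in the helper annotations. With each sample thinned to 60 Trbv UMIs, the effective number of Trbv genes (the number of equally used genes with the same entropy) was 8.06, 14.0, 12.2 and 13.2 in KO mice and 10.9, 12.2 and 11.9 in WT mice. It exceeded that of Tfh cells in 6 of 6 mice (mean difference 3.20 ± 1.50) and that of Th1 cells in 6 of 6 (4.52 ± 1.74), and that of naive CD8 cells in 3 of 7 (-0.84 ± 1.76). The most used gene took 12.4% to 21.9% of Trbv UMIs, whereas Trbv13-1 took 19.8% to 43.9% in the 6 Th1 samples. UMIs are not cells, so a cell with many receptor molecules counts more than once.

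The size of the annotation was then compared between genotypes. It made up 4.73, 6.16, 3.80 and 4.68% of T cells in KO mice and 20.3, 10.5 and 4.92% in WT mice. The KO mean was 4.84 ± 0.977% (SD, n = 4) and the WT mean 11.9 ± 7.76% (n = 3), with WT mouse 3 inside the KO range (exact permutation p = 0.0571, two-sided, adjusted over 3 denominators 0.171; the smallest p that 35 assignments allow is 0.0286). The difference was -7.05 percentage points and lay between -10.5 and -2.87 with 1 mouse left out. It was nearest 0 without WT mouse 1, which held 311 T cells. Of all sorted cells the annotation made up 2.75 ± 0.478% in KO and 2.42 ± 1.02% in WT (exact permutation p = 0.6), so the direction turned with the denominator. Of CD4 T cells it made up 14.6 ± 3.24% in KO and 29.8 ± 26.2% in WT (exact permutation p = 0.286, adjusted 0.429), where WT mouse 1 stood above the others and WT mice 2 and 3 lay within the KO range.

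The share of annotated cells with CD8 transcripts was compared in the same way, and its difference did not pass after adjustment. A Cd8a or Cd8b1 UMI was found in 20.7, 28.0, 36.8 and 22.3% of the cells in KO mice and in 11.1, 5.70 and 8.06% in WT mice, with no overlap (27.0 ± 7.29% and 8.29 ± 2.71%, exact permutation p = 0.0286, the smallest possible, adjusted over 6 classes 0.0857). After thinning to 1428 UMIs the shares were 10.7, 20.6, 24.0 and 19.5% in KO and 11.3, 3.36 and 8.77% in WT, now with KO mouse 1 below WT mouse 1 (18.7 ± 5.65% and 7.81 ± 4.05%, exact permutation p = 0.0857, adjusted 0.229). The share with a Cd4 UMI did not pass (25.7 ± 7.26% and 30.9 ± 7.18% thinned, exact permutation p = 0.4). In regulatory T cells the unthinned CD8 shares were 18.5, 10.9, 22.2 and 14.5% in KO and 0, 4.88 and 8.93% in WT mice. WT mouse 1 held 5 regulatory T cells. Th1 cells had 15.4 to 23.6% in KO mice and 9.36 and 12.2% in WT mice 2 and 3. Tfh cells had 16.6 to 30.6% in KO mice and 6.79 and 20.2% in WT mice 2 and 3, with overlap. WT mouse 1, below the minimum of 20 cells, had 37.5% of 8 Th1 cells, above all KO mice. It had 27.8% of 18 Tfh cells, within the KO range. Among mice with at least 20 cells, higher KO values were thus also seen in regulatory T cells and Th1 cells. The part of free RNA in them was not tested. The makeup of the annotation and changes within its CD4 cells cannot be told apart for genes that differ between CD4 and CD8 cells. Values without the CD8-positive cells, those with a Cd8a or Cd8b1 UMI, are therefore given for the main genes below. These values may still include CD8 cells, since only 872 of 1502 annotated naive CD8 cells (58.1%) had such a UMI.

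**Figure D3:**
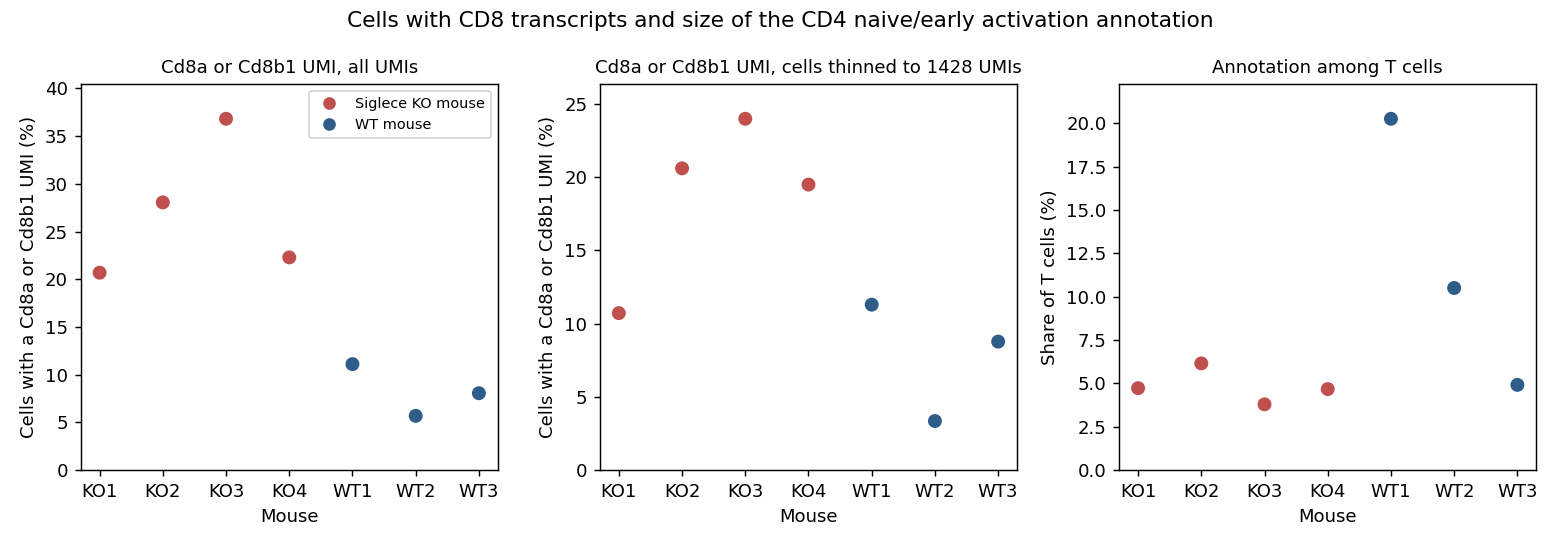
Left and middle, percent of the annotated cells of each mouse with a Cd8a or Cd8b1 UMI, before and after thinning each cell to 1428 UMIs; right, the annotation as percent of the T cells of the mouse. Red points are KO and blue points WT mice: on the left the KO mice lie between 20.7 and 36.8% and the WT mice between 5.70 and 11.1%, and on the right WT mice 1 and 2 lie above all KO mice.

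No gene passed the test between genotypes. Of 5256 genes, 0 (0%) had an adjusted p under 0.05 in edgeR's quasi-likelihood test with Benjamini-Hochberg adjustment (lowest adjusted p 0.314) and 0 in DESeq2 (lowest 0.233). At an unadjusted p under 0.05 there were 264 genes, 142 (2.7%) higher in KO and 122 (2.32%) lower. This count was 87 in DESeq2 and 164 to 297 with 1 mouse left out. Without KO mouse 2 the balance turned, with 83 higher and 107 lower. The CPM of KO and WT mice did not overlap for 137 genes with KO higher (2.61%) and 188 with KO lower (3.58%). Leaving out KO mouse 4 gave 6 called genes (Gm5586, Cd8b1, Trbv31, Rps3a3, Isg15 and Rps3a2), leaving out WT mouse 1 gave 1 (Cd8b1), and leaving out WT mouse 3 gave 2 (Cd8a and Gm2682). The replicates are separate mice. The following genes are named by rule and did not pass the adjusted threshold.

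Among the higher values in KO mice, Cd8b1 came first. It lay at 152, 217, 264 and 130 CPM in KO mice and 109, 41.5 and 71.0 CPM in WT mice, with no overlap, a log2 fold change of 1.52 (SE 0.31) and an adjusted p of 0.314 in edgeR. Cd8a had a log2 fold change of 1.34 with overlap, WT mouse 3 standing at 142 CPM. Ctsw, a cathepsin of cytotoxic lymphocytes, lay at 291 to 387 CPM in KO and 136 to 236 CPM in WT mice (0.85, SE 0.20), and Klrd1, the CD94 chain of killer lectin receptors, at 54.2 to 255 and 25.8 to 127 CPM (1.04, SE 0.43). Without the cells that held a Cd8a or Cd8b1 UMI these were 0.56 for Ctsw and 0.63 for Klrd1. Of the 6 genes of the CD8 lineage list 4 were tested, 3 at an unadjusted p under 0.05 and all 3 of these higher in KO (2.7% of all genes were). The count was 1 without KO mouse 3 or without WT mouse 1. The list summed to 520 to 863 CPM in KO mice and 384 to 490 CPM in WT mice.

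Of the 12 inhibitory receptor genes 10 were tested and 0 passed the adjusted threshold. With 8 higher and 2 lower in KO, their median log2 fold change was 0.69 (-0.0016 over all genes), and 3 had an unadjusted p under 0.05, all with KO higher (2.7% of all genes did). The median was 0.36 without WT mouse 1 and 1.23 without WT mouse 2. The count of 3 was 2 without KO mouse 3 or KO mouse 4 and 5 without WT mouse 2. The list summed to 802 to 1555 CPM in KO and 439 to 906 CPM in WT mice, with overlap. More of its genes were higher than lower in KO in the other annotations too. These were 9 of 12 in Tfh cells (median 0.27) and 10 of 12 in Th1 cells (0.24), both without WT mouse 1. In naive CD8 cells they were 9 of 11 (0.25). In the annotated CD4 cells Pdcd1 lay at 217, 207, 432 and 230 CPM in KO and 122, 164 and 148 CPM in WT mice, with no overlap (0.94, SE 0.24, edgeR adjusted p = 0.491). Ctla4 lay at 271, 194, 314 and 271 CPM in KO and 73.9, 166 and 181 CPM in WT mice, with no overlap (0.92, SE 0.25, edgeR adjusted p = 0.531). Cd101 lay at 21.7 to 39.1 and 12.9 to 17.5 CPM. Without the CD8-positive cells the log2 fold changes of Pdcd1 and Ctla4 were 1.06 and 0.97. That of Pdcd1 was 0.62 without KO mouse 3, and that of Ctla4 was 0.64 without WT mouse 1 and 0.20 with 29 cells drawn per mouse. Both genes passed with no filter on low counts (edgeR adjusted p = 0.0133 for Pdcd1 and 0.0241 for Ctla4) and in none of the other 15 alternatives. The other genes of lowest p with KO higher were Gm26532 (1.89), Sema4a (1.35), Chchd10 (1.63) and Trgv2 (1.38), the last a gamma receptor variable gene. Among the lists, Egr1 (0.60), Nr4a2 (0.67, and 0.27 without the CD8-positive cells), Nfkbid (0.91) and Dusp2 (0.35) of early activation, Ccr2 (0.87), H2-T22 (0.38) and H2-Ab1 (0.61) had an unadjusted p under 0.05 with KO higher.

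Of 47 interferon response genes tested 0 passed the adjusted threshold. Of these 38 lay lower in KO mice and 9 higher, with a median log2 fold change of -0.33, and 14 had an unadjusted p under 0.05, all with KO lower (2.32% of all genes did). For 8 of the 47 the mice did not overlap with KO lower (3.58% of all genes) and for 1 with KO higher. Isg15, whose upstream motifs are printed above, lay at 141, 107, 74.1 and 188 CPM in KO and 282, 317 and 226 CPM in WT mice. All 4 KO mice were below all 3 WT mice (log2 fold change -1.14, SE 0.26, edgeR adjusted p = 0.327). Isg15 did pass in 3 of 15 alternatives, with the replicate block, without KO mouse 4 and with no filter on low counts (edgeR adjusted p = 0.00166, the lowest), while the highest, without WT mouse 1, was 0.999. Replicate number 4 belongs to KO mouse 4 alone, so in the block fit that mouse adds nothing to the genotype difference. The block fit and the fit without KO mouse 4 are therefore not separate support. Ifit3b lay at 9.77 to 19.6 CPM in KO and 26.2 to 51.6 CPM in WT mice (-1.42, SE 0.47). Bst2, or tetherin, which holds budding viruses on the cell, lay at 173, 207, 140 and 247 CPM and 330, 234 and 329 CPM, with KO mouse 4 above WT mouse 2 (-0.57). Ly6a (Sca-1) lay at 488 to 638 and 669 to 777 CPM (-0.39), and Herc6, an ISG15 ligase, at 20.9 to 39.1 and 48.0 to 52.1 CPM (-0.83). The others were Usp18 (-1.11), Ifih1 (-0.79), Gbp2 (-0.77), Slfn5 (-0.72), Ifit1 (-0.64), Rtp4 (-0.62), Gbp4 (-0.56), Ifi47 (-0.53) and Ifi203 (-0.44). The median of the list was -0.37 without the CD8-positive cells. With 1 mouse left out it lay between -0.41 and -0.30, while the count of 14 genes was 4 without KO mouse 3, 5 without WT mouse 1 and 6 without KO mouse 2 or WT mouse 2.

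**Figure D4:**
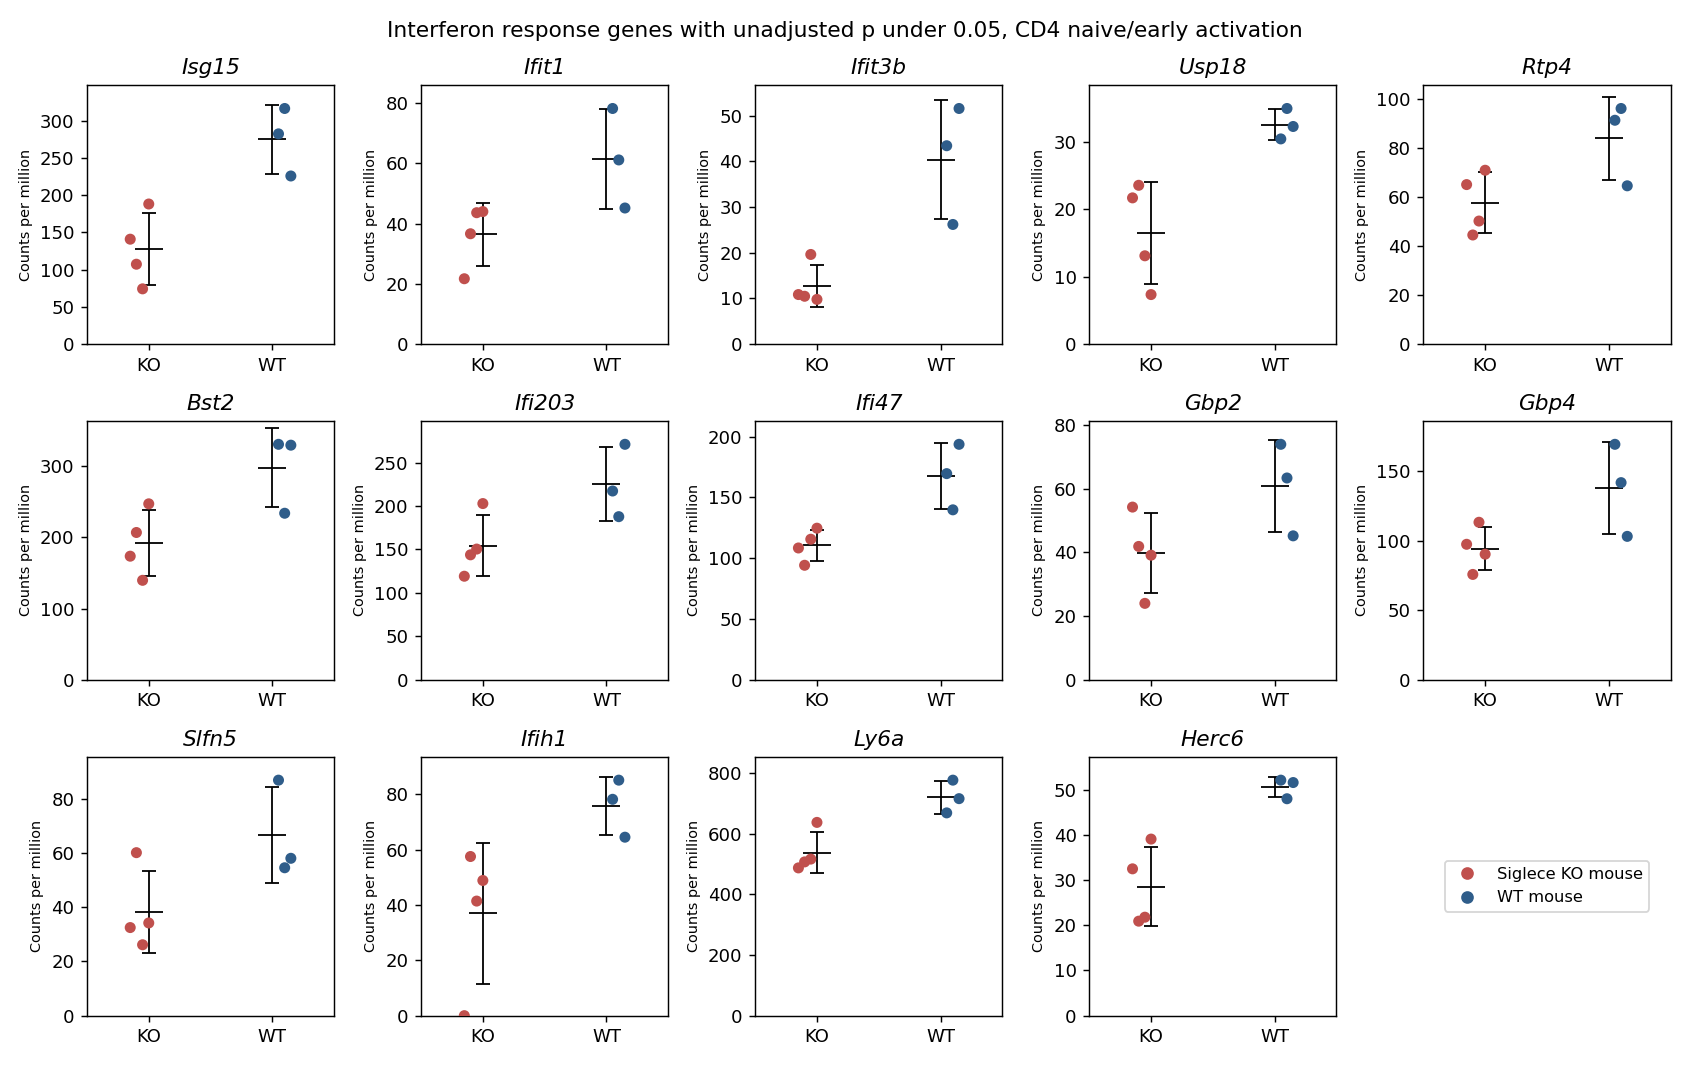
Level of the 14 interferon response genes with an unadjusted p under 0.05, in CPM of the summed UMIs of the annotated cells; each point is 1 mouse, red for KO and blue for WT, with mean and SD bars. KO mice lie lower in each panel by the mean, with no overlap for Isg15, Ifit1, Ifit3b, Usp18, Ifi47, Ifih1, Ly6a and Herc6, and no gene passed the adjusted threshold.

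The same list was read in the other annotations, in all 7 mice for naive CD8 cells and without WT mouse 1 for Tfh and Th1 cells. Without WT mouse 1 the annotated CD4 cells had 35 of 49 genes lower in KO, with a median of -0.30. Of these 49, 5 had an unadjusted p under 0.05 with KO lower, where 84 of 5979 genes did. In naive CD8 cells 54 of 56 genes lay lower in KO, with a median of -0.53, and 27 had an unadjusted p under 0.05 with KO lower, where 2.72% of all genes did. Of these, 1 gene, Ifit1, passed the adjusted threshold there (-1.25, SE 0.21, edgeR adjusted p = 0.0348), and 0 genes of the list did in Tfh or Th1 cells. Over all genes 2 of 8312 passed in naive CD8 cells, 1 of 8760 in Tfh cells and 3 of 9209 in Th1 cells. The other in naive CD8 cells was Iigp1, which the list does not hold (-1.77, SE 0.27, edgeR adjusted p = 0.00593). In Th1 cells 43 of 51 lay lower (median -0.22, 10 with an unadjusted p under 0.05 and KO lower, against 1.68% of all genes), and in Tfh cells 29 of 52 (median -0.04, 5 such genes, against 1.88%). In the test of whether the genotype effect differs between annotations, 0 interferon genes passed against any of the 3. Against naive CD8 cells 38 of 54 differences were positive and 7 had an unadjusted p under 0.05, all positive, where 156 of 6500 genes did. The median differences were -0.05 against Tfh, 0.06 against Th1 and 0.16 against naive CD8 cells.

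Naive, metabolic and handling genes were read in the same way. Tcf7 was lower in KO mice with no overlap (196 ± 12.2 and 275 ± 21.4 CPM, log2 fold change -0.47, SE 0.18) and Lef1 with overlap (87.3 ± 18.6 and 143 ± 47.6 CPM, -0.68, SE 0.26). Without the CD8-positive cells they were at -0.37 and -0.76. The median of the 20 naive genes tested was -0.10, with 13 lower and 7 higher, and it was 0.06 without WT mouse 1, with 8 lower and 13 higher. Of 13 metabolism genes 5 had an unadjusted p under 0.05 with KO lower (2.32% of all genes did), Pgk1 (-0.66), Pfkp (-0.56), Slc7a5 (-0.52), Eno1 (-0.45) and Gapdh (-0.37), and 0 with KO higher. The count was 0 without WT mouse 1, 1 without KO mouse 3, 2 without KO mouse 1, KO mouse 2 or WT mouse 2, 3 without WT mouse 3 and 7 without KO mouse 4. It was 2 without the CD8-positive cells, and the median was -0.32 as reported and -0.05 over the 7 genes with whole values. The cold-inducible RNA-binding genes Rbm3 (0.58) and Cirbp (0.78) were the 2 of 5 tested at that level in their list, both with KO higher (2.7% of all genes were, which also stands beside the next count). Of the 19 dissociation genes tested 17 lay higher in KO, 3 at an unadjusted p under 0.05 (Egr1, Fosb and Dusp1). Among cells in G1 11 of 19 lay higher, in a fit that left out KO mouse 1 with its 15 such cells. With all phases and without KO mouse 1, 15 of 19 lay higher. The list summed to 44718 to 61696 CPM in KO and 42006 to 52386 CPM in WT mice. In Tfh cells 17 of 20 dissociation genes lay higher in KO and in Th1 cells 18 of 20, both without WT mouse 1. In naive CD8 cells 7 of 20 did. The part of handling in the genotype values was not tested. The remaining named list genes were Cd40lg (-0.58, and -0.40 without the CD8-positive cells), Sh2d1a (-0.57) and Itgb7 (-0.53). Dgat1 (-0.91), Serf2 (-0.52), Cdc25b (-1.40), Ass1 (-0.82), Zfp800 (-1.04), Abtb2 (-1.49) and Uqcc2 (-0.85) completed the 8 genes of lowest p with KO lower and no overlap. Dgat1, which makes triglyceride, lay at 65.4 to 110 CPM in KO and 148 to 181 CPM in WT mice.

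Whether genotype acted differently in this annotation was tested gene by gene with mouse terms. Against Tfh cells 0 of 7525 genes passed (0%; 311 at an unadjusted p under 0.05), against Th1 cells 3 of 7975 (0.0376%), and against naive CD8 cells 4 of 6500 (0.0615%). Penk passed against Th1 (difference of log2 fold changes 4.50, SE 0.84, edgeR adjusted p = 0.0104) and against naive CD8 cells (7.04, SE 0.91, edgeR adjusted p = 2.18e-05). It had 0, 5, 16 and 13 UMIs in KO mice and 0, 1 and 0 in WT mice here, and 75 of its 79 WT UMIs in naive CD8 cells came from WT mouse 2. Without WT mouse 2 the call against naive CD8 cells was lost (edgeR adjusted p = 0.988), and the call against Th1 was lost without KO mouse 4 and in the fit without WT mouse 2. Against Th1 that last fit leaves 1 WT mouse, which is assumed to vary like the KO mice, so a loss there does not show that the call depends on WT mouse 2. The antibody light-chain genes Igkv14-100 and Igkv1-110 also passed, though nearly all their UMIs came from KO mouse 4 and WT mouse 2. Igkv14-100 did not pass without KO mouse 4 against Th1, nor without KO mouse 2 or WT mouse 2 against naive CD8 cells. Against Th1 both also missed the threshold in the fit with 1 WT mouse, the only loss for Igkv1-110. Igfbp4 passed against naive CD8 cells (-3.30, SE 0.62, edgeR adjusted p = 0.0157), with 1, 5, 1 and 2 UMIs in KO and 18, 10 and 3 in WT mice. Egr1, an immediate early factor of receptor signalling and of handling, passed against naive CD8 cells (0.84, SE 0.17, edgeR adjusted p = 0.0367). It lay at 704, 596, 1254 and 738 CPM in KO and 556, 620 and 471 CPM in WT mice here, and at 350 to 800 and 433 to 881 CPM in naive CD8 cells. With KO mouse 1, 2 or 4 or WT mouse 1 left out it did not pass, and Igfbp4 did not without KO mouse 2 or 4 or WT mouse 1 or 2.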

How the data were processed

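The authors deposited 1 matrix of UMI values over 55491 genes, treated here in the unit expected counts. In the annotated CD4 cells 9.34% of the values above 0 were more than 0.01 from a whole number, for a reason not given in the sources used here. They also deposited a cell table with annotation, cell cycle phase, counts of detected genes and percent of mitochondrial reads. Per the submitters' processing notes, mm10, FastQC 0.11.5, STARsolo and STAR 2.7.10a were used; how cells were annotated and doublets treated is not given in the sources used here. Cell annotations were used as the authors deposited them, with no further filter on cells.

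UMIs were summed per mouse and annotation and rounded to whole counts. Genotypes were compared with edgeR 4.0.16 (quasi-likelihood, TMM, filter on low counts, Benjamini-Hochberg) in R 4.3.3, with DESeq2 1.42.0 as an alternative, and type-by-genotype differences with mouse terms. Annotations were compared by log2 CPM differences within mice (prior count 2), with no test. Single values had two-sided exact permutation tests over the 35 assignments of mice (scipy 1.17.1). Scripts were tested on simulated data. Summed depth was 92404 to 458753 UMIs per mouse, so genes of a few counts are imprecise.

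Named genes were, between genotypes, the 8 per direction of lowest p without overlap and list genes with an unadjusted p under 0.05; between annotations, the 10 most different per direction with at least 50 CPM in the higher one, and genes of the lists. Il17a and the genes called only under an alternative were named after their values were seen. The members and lists were chosen with earlier results of these data known. Alternatives were other normalization, no filter, a replicate block, a sex term, equal cells, G1 cells, cells without CD8 UMIs, genes with whole values, and each mouse left out. The fit on G1 cells also left out KO mouse 1, which held 15 of them. One marker gene is not reported here.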

Additional observations from a re-analysis of the deposited data

Results flagged for a closer look

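In groups of 4 to 7 mice, 1 mouse lay far from the others in 8 values. Chance alone marks about 1 in 20 groups this way. The number of groups screened is not given here, so the 8 cannot be set against that rate. Pdcd1 was at 432 CPM in KO mouse 3 against 207 to 230 CPM in the other KO mice. Ifit3b was at 19.6 CPM in KO mouse 3 against 9.77 to 10.8 CPM. KO mouse 1, with 29 cells, stood apart in 4 log2 differences: Klf2 against Tfh at 5.26 (others 3.61 to 4.14), Lag3 against Th1 at -7.8 (others -3.78 to -2.31), with no Lag3 UMI in its annotated cells, Tmem176b against naive CD8 cells at 3.52 (others 0.623 to 1.8) and Cd7 against naive CD8 cells at -4.87 (others -2.42 to -0.9). Ass1 against naive CD8 cells was at 3.41 in WT mouse 1 (others 1.02 to 1.6), and Klrb1c at -1.45 in KO mouse 2 (others -3.69 to -2.73).

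The genotype effect differed from that in another annotation for 7 gene and annotation pairs by edgeR's interaction test, as differences of log2 fold changes. Against Th1 cells these were Igkv1-110 (-4.15), Penk (4.5) and Igkv14-100 (1.85). Against naive CD8 cells they were Penk (7.04), Igfbp4 (-3.3), Igkv14-100 (1.64) and Egr1 (0.842). Each missed the threshold in at least 1 fit with 1 mouse left out. For Igkv1-110 this was only the fit without WT mouse 2, which leaves 1 WT mouse and cannot show that the call depends on the mouse left out.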

How the results depend on the processing

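Genotype calls, 0 as reported, were 17 with no filter on low counts and 0 to 6 with 1 mouse left out. Difference calls with no filter were 5 against Tfh, 12 against Th1 and 8 against naive CD8 cells, and with 1 mouse left out 0 to 5, 0 to 7 and 1 to 6. Against Tfh and Th1, leaving out a WT mouse leaves 1, assumed to vary like the KO mice. The cause was not tested. The share among T cells differed by -7.05 percentage points (-10.5 to -2.87 with 1 mouse left out) and by 0.331 over all sorted cells. The difference in the share with a CD8 UMI was 18.7 percentage points without thinning, and 8.66 to 13.5 with thinning and 1 mouse left out. Same-numbered KO and WT mice had correlations of -0.0038, 0.019 and -0.12, and mice of unlike number had -0.087 to 0.146. The replicate numbers thus gave no sign of pairing, though so few pairs cannot show that there was none. The replicate block, in which KO mouse 4 stands alone and adds nothing to the genotype difference, gave 5 genotype calls. All of these were also called without KO mouse 4. Small summed counts, fewest in KO mouse 1, and 3 WT mice limit what can be detected.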

Other observations

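Il17a, a cytokine of Th17 cells that gamma-delta T cells of this series also held, was uneven between mice in the annotated cells. It was singled out after its values were seen. It had 26, 13, 0 and 7 UMIs in KO mice 1 to 4 and 7, 17 and 0 in WT mice 1 to 3, which is 282 CPM in KO mouse 1 and at most 37.1 CPM in the others. In KO mouse 1 these UMIs lay in 3 of its 29 cells (10.3%). After thinning, Il17a was found in 0.990% of all annotated cells and in 47.4% of gamma-delta T cells. The type of the cells that held it here was not tested. The share of annotated cells called in G1 was 62.9 ± 8.18% in KO (SD, n = 4) and 69.6 ± 3.07% in WT mice (n = 3), a difference within the spread (exact permutation p = 0.257).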
